A study of Homo sapiens with 12 samples.

Results

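The 33 genes that encode the subunits of the human Mediator complex were followed in total RNA from HCT116 cells, an established colorectal carcinoma line. They were picked by gene symbol (MED1 to MED31 as far as human genes carry these names, MED12L, MED13L, CDK8, CDK19 and CCNC) from a table of 63241 genes. All 33 were found, and all 33 were among the 23593 genes that had enough counts to be tested. The series compares loss of RNA polymerase I (Pol I), loss of RNA polymerase II (Pol II) and a drug that stops both. There were 4 groups of 3 libraries. The controls were WT cells given DMSO for 8 h. POLR1A-AID1 cells, whose endogenous POLR1A carries an auxin-inducible degron, were given doxycycline (1 µg/ml, starting 24 h ahead), which switches on the receptor OsTIR1, and then 500 µM IAA for 8 h. POLR2A-AID2 cells carry a second-generation degron on endogenous POLR2A and had 1 µM 5-Ph-IAA for 8 h. The last group was WT cells with 5 µg/mL actinomycin D, which binds DNA and stops transcription, for 6 h. The extraction text gives harvest at 6 h for each condition, against the 8 h of 3 groups in the titles. The study calls the 3 replicates of a group technical: they were dishes treated on 1 day, so p-values measure only the spread between dishes. Neither degron line had libraries without its ligand here, so the line, its inducer and its ligand cannot be told apart from the loss of the polymerase subunit. Whether each line is 1 clone is not given in the sources used here.

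Mediator is a large coactivator that links DNA-bound transcription factors to Pol II at promoters. Its head and middle modules contact the polymerase and the general transcription factors, its tail is the main docking site of activators, and MED14 is the backbone that joins them. A separable kinase module, made of CDK8 or its paralogue CDK19, cyclin C (CCNC), MED12 or MED12L and MED13 or MED13L, binds the core reversibly, and the core cannot hold the polymerase while it is bound. MED26 joins the core in the form that lacks the kinase module and is known for recruiting elongation factors.

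Library totals ran from 11289094 to 27393969 counts, and the lowest count of a member in any library was 23 (MED18 with actinomycin D), so the weakest members carry the widest errors. Levels are CPM, counts scaled to a common library size, after TMM scaling, a trimmed-mean correction for library composition, and are shares of the RNA sequenced, not amounts per cell: in such bulk samples, fewer cells of a type and less RNA per cell cannot be told apart. The 33 members together made up 2140 to 2248 CPM in the controls, 2413 to 2507 after POLR1A loss, 1472 to 1482 after POLR2A loss and 1877 to 1970 under actinomycin D, and no 2 groups overlapped. Of 12 colorectal epithelial markers 10 had a count in the controls, summing to 3685 to 4169 CPM, while CDX1 and LGR5 were at 0. The same sum was 2033 to 2186 CPM after POLR1A loss, 2515 to 2722 after POLR2A loss and 3349 to 3645 under actinomycin D, and LGR5 had 18.8 to 21.7 CPM in the POLR2A-AID2 line. Blood cell markers summed to 4.15 to 10.7 CPM over all libraries, with CD3E at 0 in all but 1, and mesenchymal markers to 7.31 to 23.0 CPM, with LUM at 0 in all. Neural markers summed to 38.4 to 118 CPM, most of it from SYT1 (35.4 to 116 CPM). The part of these marker differences in the results below was not tested.

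Levels differed widely between subunits. Per kb of annotated exon sequence, MED13 and MED1 had the highest mean control levels, at 29.9 and 28.9 CPM per kb, followed by MED4 at 20.2 and CCNC at 18.8. This length joins the exons of all annotated transcripts of a gene and can exceed that of the mRNA made, so the order depends on the annotation. It was 37364 bases for MED13L, with 6666 coding, and 2358 for MED4, with 810 coding. The lowest were MED12L at 0.92 CPM per kb, CDK19 at 2.12, and MED7 and MED30 at 2.46 each. With POLR2A depleted MED13 and MED1 stood at 14.8 and 13.3 CPM per kb, beside CCNC at 15.6, MED16 at 14.8, MED29 at 14.7 and MED24 at 13.7. With actinomycin D the highest were MED1 at 28.9, CCNC at 22.5, MED16 at 21.6 and MED24 at 21.0 CPM per kb, and the lowest were MED26 at 0.35, MED9 at 0.66 and MED18 at 0.75. MED26 had thus gone from 4.44 CPM per kb in the controls to the lowest level of the 33.

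Each comparison was fitted over all genes with edgeR's quasi-likelihood test, and a gene is called higher or lower where its Benjamini-Hochberg adjusted p is under 0.05. With POLR1A depleted 13 of the 33 members rose and 2 fell, where 20.6% of all genes tested rose and 18.6% fell. The members' median log2 fold change was 0.17, against 0.01 for all genes, and no member changed by 1 or more on the log2 scale, where 4.94% of all genes rose and 4.90% fell by as much. Without POLR1A-depleted replicate 2 this median was 0.09. The members lower were 1 without control replicate 1, POLR1A-depleted replicate 2 or POLR1A-depleted replicate 3, and 0 without control replicate 2 or POLR1A-depleted replicate 1. With POLR2A depleted 7 rose and 18 fell, where 33.2% of all genes rose and 28.2% fell. The median was -0.27 against 0.08, and 8 members fell by 1 or more, against 9.64% of all genes, while 0 rose by 1 or more, against 22.0%. With actinomycin D 10 rose and 18 fell, where 24.9% of all genes rose and 28.5% fell. Here the median was -0.29 against -0.06, with 6 members lower by 1 or more (17.0% of all genes) and 1 higher by 1 or more (3.88% of all genes). Members are better measured than most genes, and among the 12225 genes within their range of average log2 CPM the shares were 32.6% and 28.2% with POLR1A depleted, 24.3% and 46.7% with POLR2A depleted, and 40.1% and 35.3% with actinomycin D. The medians of those genes were 0.04, -0.19 and 0.07 in this order.

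These directions are relative to the bulk of each library's genes. Scaling to the 13 mitochondrially encoded mRNAs moved the median of all genes to 0.37 after POLR1A loss, -0.20 after POLR2A loss and 0.82 under actinomycin D. The share of higher genes among all calls went from 52.6% to 85.1%, from 54.1% to 38.6% and from 46.7% to 85.2%. The members' calls became 20 higher and 0 lower, 1 and 19, and 21 and 4, and the members' median with actinomycin D turned to 0.63. Of all genes 30.5% were then higher and 5.35% lower, 21.4% and 34%, and 50.4% and 8.74%. Mitochondrial mRNAs held 6.06 to 8.17% of the counts in controls, 5.58 to 5.98% after POLR1A loss, 8.68 to 10.4% after POLR2A loss and 3.42 to 3.54% under actinomycin D. Whether the treatments changed the mitochondrial mRNAs themselves was not tested, so this scaling is not a fixed reference. Relative to the median of all genes, the members' median was 0.15 with POLR1A depleted under both scalings, -0.35 and -0.36 with POLR2A depleted, and -0.23 and -0.19 with actinomycin D. Genes within the members' range of average log2 CPM had TMM medians of 0.04, -0.19 and 0.07, beside 0.17, -0.27 and -0.29 for the members. Against these genes the members' gap was narrower with POLR2A depleted and wider with actinomycin D.

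**Figure D1:**
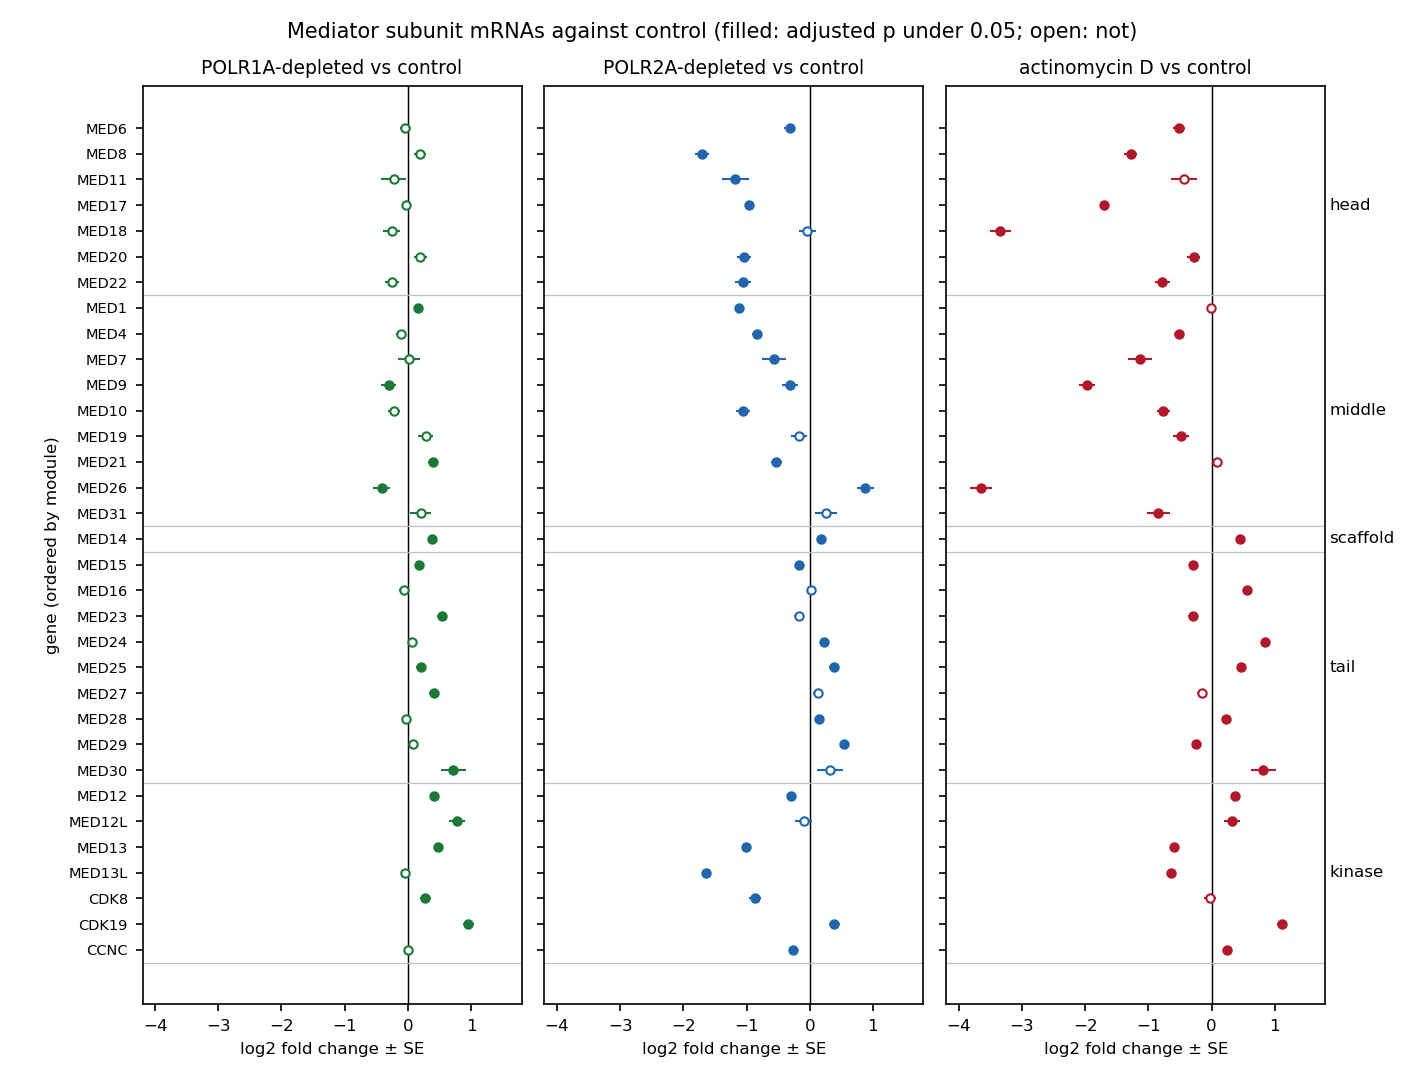
Log2 fold change with its SE (x axis) of each of the 33 Mediator subunit mRNAs (y axis, by module) against control in 3 comparisons of 3 libraries with 3, filled where the adjusted p was under 0.05. With POLR2A depleted the head and middle genes lie mostly to the left while the tail lies near 0. With actinomycin D MED26 and MED18 stand farthest left at -3.65 and -3.34, and CDK19 farthest right at 1.11. Under scaling to mitochondrial mRNAs the whole actinomycin D panel shifts right, and MED26, MED18, MED9, MED17, MED8 and MED7 alone stay below 0 there.

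The modules differed in their values, and differences between modules were not tested. Of all genes 20.6% rose and 18.6% fell with POLR1A depleted, and 33.2% and 28.2% with POLR2A depleted. With actinomycin D 24.9% rose and 28.5% fell. Within the members' range of average log2 CPM these shares were 32.6% and 28.2%, 24.3% and 46.7%, and 40.1% and 35.3%. Some module counts lie near these shares, such as the tail's 33.3% lower with actinomycin D. In the head 0 of 7 genes passed edgeR's test with POLR1A depleted (median -0.04; 2 at an unadjusted p under 0.05, and 0 called by DESeq2), while 6 fell with POLR2A depleted (median -1.05) and 6 with actinomycin D (median -0.78). In the middle 2 of 9 rose and 2 fell with POLR1A depleted (median 0.02), 1 rose and 6 fell with POLR2A depleted (median -0.53), and 7 fell with actinomycin D (median -0.76). The scaffold gene MED14 rose in all 3. In the tail 5 of 9 rose with POLR1A depleted (median 0.18), 4 rose and 1 fell with POLR2A depleted (median 0.14), and 5 rose and 3 fell with actinomycin D (median 0.22). In the kinase module 5 of 7 rose with POLR1A depleted (median 0.41), 1 rose and 5 fell with POLR2A depleted (median -0.30), and 4 rose and 2 fell with actinomycin D (median 0.25). All medians are log2 fold changes, and the 3 comparisons share the control libraries. MED27 to MED30 sit between head and tail and are assigned to either. Counted with the head, they moved the head median to -0.32 with POLR2A depleted and -0.44 with actinomycin D, and left the tail at 0.02 and 0.47.

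MED26 had the highest fold between its highest and lowest group of any subunit. It stood at 22.6, 26.4 and 22.02 CPM in the 3 control libraries, 15.6, 19.3 and 18.4 after POLR1A loss, 44.1, 46.7 and 39.9 after POLR2A loss and 1.94, 2.51 and 1.13 under actinomycin D. No group overlapped another, and the order was POLR2A-depleted, control, POLR1A-depleted, actinomycin D. MED26 rose with POLR2A depleted by 0.88 (SE 0.13, adjusted p = 1.35e-05), which is 1.84-fold. It fell by 3.65 (SE 0.18, adjusted p = 6.66e-12) with actinomycin D, 12.5-fold lower, and rested there on 36, 63 and 24 counts. With POLR1A depleted it fell by 0.41 (SE 0.13, adjusted p = 0.0195), a call that was lost without POLR1A-depleted replicate 1 (-0.32, adjusted p = 0.101) or control replicate 2 (-0.31, adjusted p = 0.112). Actinomycin D against POLR2A depletion gave the widest gap of the 33 in that comparison, at -4.53 (SE 0.17), or 23.1-fold lower (adjusted p = 2.01e-13). Of MED26's exon bases 27.2% are shared with AC008764.1 on the same strand, a gene with under 1 count per library on average in each group. A further 13.2% are shared with AC008764.4, also on that strand, with 2.29 counts per library on average in the controls and 10.7 with actinomycin D, so how the authors' counting split such reads is uncertain. On the other strand AC008764.8 shares 8.14% of MED26's exon bases and averaged 20.1 counts in controls, 46.7 with POLR2A depleted and 31.6 with actinomycin D, near MED26's own counts under the drug, which matters where the counting did not use strand.

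MED18 pairs with MED20 in the movable part of the head. It stood at 13.4, 18.3 and 14.8 CPM in controls, 13.8, 13.3 and 11.98 after POLR1A loss, 15.9, 13.9 and 15.8 after POLR2A loss and 1.24, 1.87 and 1.41 under actinomycin D. Both depleted groups overlapped the controls, and the actinomycin D libraries lay far below all others. The fall with actinomycin D was 3.34 (SE 0.17, adjusted p = 2.67e-13), or 10.1-fold lower, on 23, 47 and 30 counts. The log2 fold change was -0.03 (SE 0.13, adjusted p = 0.839) with POLR2A depleted and -0.25 (SE 0.13, adjusted p = 0.141) with POLR1A depleted. Actinomycin D and POLR2A depletion differed by -3.31 (SE 0.17) on the log2 scale (adjusted p = 3.15e-13).

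MED9, a small middle subunit that binds MED4, was the third gene whose level with actinomycin D stood far below every other group. It stood at 16.9, 15.5 and 14.3 CPM in controls, 11.9, 13.4 and 12.3 after POLR1A loss, 13.7, 12.1 and 11.6 after POLR2A loss and 3.77, 3.66 and 4.42 under actinomycin D. The 2 depletions lay just under the controls and overlapped each other, and the actinomycin D libraries lay well below. MED9 fell by 1.97 (SE 0.13, adjusted p = 2.64e-11) with actinomycin D. It fell by 0.31 (SE 0.12, adjusted p = 0.0435) with POLR1A depleted and by 0.31 (SE 0.12, adjusted p = 0.029) with POLR2A depleted, but the first call was lost with library totals alone, without the filter and in DESeq2 (adjusted p = 0.101, 0.0785 and 0.0516), with a replicate block (adjusted p = 0.0614) and when any 1 of 5 of the 6 libraries was left out (all but control replicate 3; adjusted p up to 0.184). The second was lost with median-ratio size factors, with library totals alone and in DESeq2 (adjusted p = 0.0634, 0.189 and 0.109), without POLR2A-depleted replicate 2 (adjusted p = 0.0584), without POLR2A-depleted replicate 3 (adjusted p = 0.0856) and without control replicate 1 (adjusted p = 0.0872). The direct difference between actinomycin D and POLR2A depletion was -1.66 (SE 0.13) (adjusted p = 4.19e-10). Under scaling to mitochondrial mRNAs MED26, MED18 and MED9 were still lower with actinomycin D than in controls, by 2.74, 2.42 and 1.07 on the log2 scale. There the POLR1A values of MED9 and MED26 were 0.03 and -0.06 (adjusted p = 0.939 and 0.854), and MED9's difference between actinomycin D and POLR2A depletion was -0.45 (adjusted p = 0.056).

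**Figure D2:**
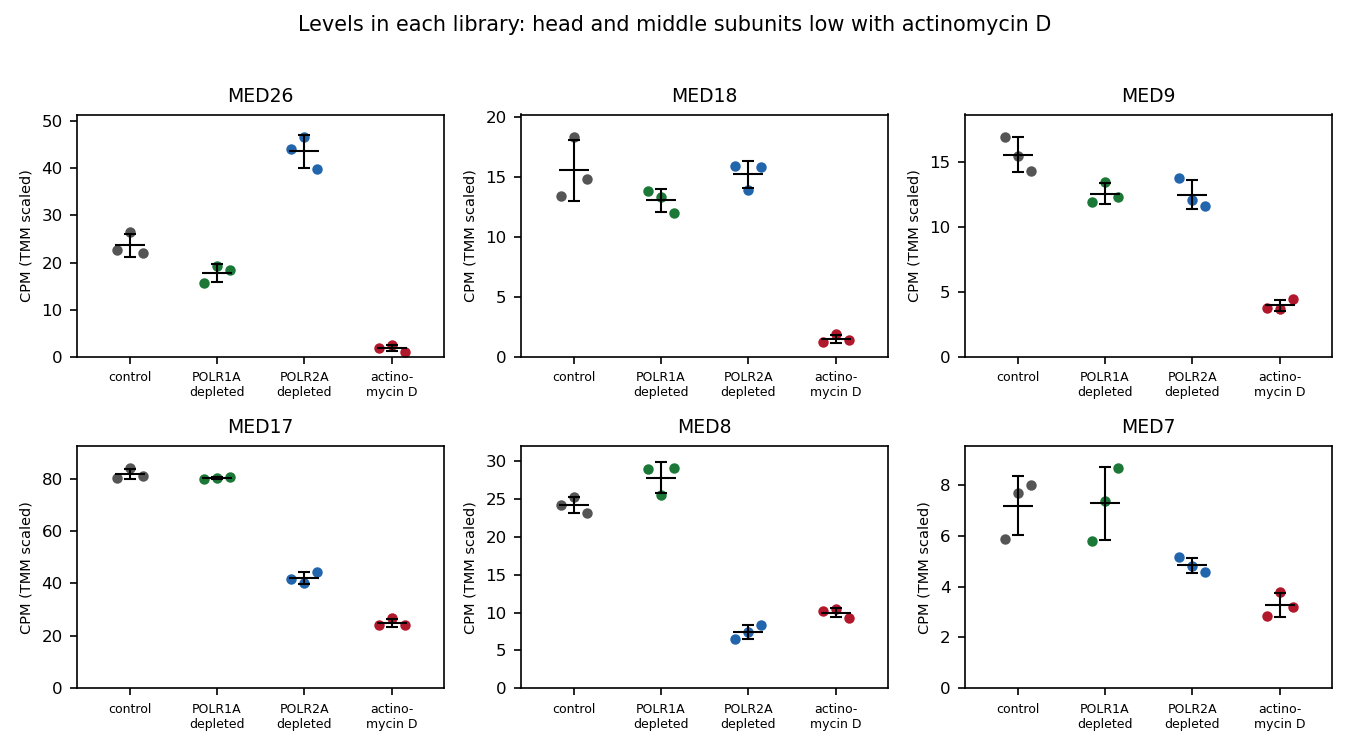
TMM-scaled CPM (y axis, starting at 0) of MED26, MED18, MED9, MED17, MED8 and MED7 in each library (points) with the group mean and SD (bars, n = 3). MED26, MED18 and MED9 are far lower with actinomycin D than in any other group, while MED8 is lowest with POLR2A depleted. MED26 is highest with POLR2A depleted, at 39.9 to 46.7 CPM.

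The sequence just before the start of these 3 genes is shown beside that of MED16, a tail gene of the opposite direction with actinomycin D, because the genes that fell most with the drug can then be compared with one that rose. Each run is given 5′ to 3′ on the gene's strand from RefSeq (GRCh38.p14), from 250 bases before the RefSeq start up to the first base in any annotated exon. The MED26 start used by RefSeq lies inside the longer gene that GENCODE 29 gives for MED26, so its run lies within that gene's span and in no annotated exon. Motifs found by search of both strands are in capitals.
MED26: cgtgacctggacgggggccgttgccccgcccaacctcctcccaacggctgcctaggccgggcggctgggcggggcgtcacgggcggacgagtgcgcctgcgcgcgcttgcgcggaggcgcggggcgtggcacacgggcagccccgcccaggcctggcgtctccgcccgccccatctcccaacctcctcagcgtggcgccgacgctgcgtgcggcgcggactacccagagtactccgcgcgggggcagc
MED18: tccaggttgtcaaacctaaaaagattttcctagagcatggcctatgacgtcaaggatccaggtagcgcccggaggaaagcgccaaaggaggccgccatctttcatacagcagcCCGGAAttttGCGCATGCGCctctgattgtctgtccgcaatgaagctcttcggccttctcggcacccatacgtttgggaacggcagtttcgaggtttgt
MED9: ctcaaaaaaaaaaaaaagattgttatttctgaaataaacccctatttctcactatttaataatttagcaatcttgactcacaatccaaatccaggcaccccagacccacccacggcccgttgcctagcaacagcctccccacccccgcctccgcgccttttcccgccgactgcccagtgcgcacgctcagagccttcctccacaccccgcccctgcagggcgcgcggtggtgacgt
MED16: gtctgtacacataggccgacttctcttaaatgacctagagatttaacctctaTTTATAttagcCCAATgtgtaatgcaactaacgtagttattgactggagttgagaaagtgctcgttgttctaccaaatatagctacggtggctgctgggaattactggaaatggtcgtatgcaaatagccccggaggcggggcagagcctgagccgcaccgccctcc
The runs are chr19:16628207-16628454 (minus strand) for MED26, chr1:28328790-28329001 (plus strand) for MED18, chr17:17476750-17476985 (plus strand) for MED9 and chr19:893219-893437 (minus strand) for MED16. The letters searched were CACGTG for the E-box and CCGGAA for the core of sites of ETS factors. The CCAAT box, the TATA box in the form TATAAA and the palindromic site of the factor NRF1 were searched as well. The E-box and the NRF1 site read the same on both strands. None of these motifs is contained in another, and matches could overlap. MED18 held CCGGAA 137 bases and the NRF1 site 127 bases before its start, with another CCGGAA 21 bases before the start, outside the printed run. MED16 held the TATA letters, on the opposite strand, 198 bases before its start and CCAAT 187 bases before it. MED26 and MED9 held no match in the window, which says only that these letters are not there. RefSeq windows of 300 bases (250 before and 50 after the start) were matched for 25 members with 30 windows. CCGGAA was in 36.7% of these windows and in 17.2% of all 35116 windows, the CCAAT box in 36.7% and 34.6%, the E-box in 6.7% and 7.26%, the TATA box in 6.7% and 11.5%, and the NRF1 site in 3.3% and 1.24%. A match is a description of the letters, and no binding was measured.

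The other 6 head genes all fell with POLR2A depleted. MED17, the central architectural subunit of the head, stood at 80.3, 84.04 and 81.1 CPM in controls, 79.8, 80.2 and 80.7 after POLR1A loss, 41.8, 40.2 and 44.5 after POLR2A loss and 24.3, 26.8 and 24.1 under actinomycin D. Controls and POLR1A-depleted libraries overlapped, POLR2A-depleted ones lay below them, and actinomycin D ones lower again. MED17 fell by 0.96 (SE 0.06, adjusted p = 1.87e-11) with POLR2A depleted and by 1.71 (SE 0.06, adjusted p = 1.44e-15) with actinomycin D. With POLR1A depleted its log2 fold change was -0.03 (SE 0.06, adjusted p = 0.754).

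MED8, which anchors the MED18 and MED20 pair to the head, stood at 24.2, 25.3 and 23.2 CPM in controls, 28.9, 25.5 and 29.1 after POLR1A loss, 6.57, 7.404 and 8.37 after POLR2A loss and 10.2, 10.4 and 9.304 under actinomycin D. Both low groups were separate from the controls and from each other, with the POLR2A-depleted libraries lowest. MED8 fell by 1.71 (SE 0.11, adjusted p = 1.91e-11) with POLR2A depleted, the largest fall of the 33 in that comparison, and by 1.28 (SE 0.10, adjusted p = 5.29e-10) with actinomycin D. The POLR1A-depleted libraries all lay above the controls, but the log2 fold change of 0.20 (SE 0.09, adjusted p = 0.106) did not pass the test.

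MED11 and MED22 form a helical pair in the head. MED11 stood at 4.45, 5.16 and 4.91 CPM in controls, 3.84, 4.24 and 4.33 after POLR1A loss, 1.81, 2.37 and 2.24 after POLR2A loss and 3.02, 3.98 and 3.71 under actinomycin D. All 3 treated groups lay below the controls, and the POLR2A-depleted libraries were lowest, on 27 to 40 counts. MED11 fell by 1.18 (SE 0.22, adjusted p = 8e-05) with POLR2A depleted, and its log2 fold change was -0.44 (SE 0.20, adjusted p = 0.0756) with actinomycin D and -0.23 (SE 0.20, adjusted p = 0.411) with POLR1A depleted. Of its exon bases 31.1% are shared with the antisense gene AC091153.4 and 5.75% with CXCL16 on the other strand, so its value is uncertain where the counting did not use strand. MED22 stood at 34.7, 34.6 and 30.7 CPM in controls, 25.8, 29.1 and 29.1 after POLR1A loss, 14.3, 19.8 and 13.4 after POLR2A loss and 18.6, 21.98 and 17.5 under actinomycin D. Its treated libraries lay below the controls in each group, and those of the POLR2A and actinomycin D groups overlapped each other. MED22 fell by 1.06 (SE 0.12, adjusted p = 5.9e-07) and by 0.78 (SE 0.12, adjusted p = 1.45e-05) in these 2, while -0.25 (SE 0.12, adjusted p = 0.101) with POLR1A depleted did not pass. The MED22 value with POLR1A depleted passed without the filter and with only the 6 libraries compared (adjusted p = 0.0269 and 0.0181), and the MED11 value with actinomycin D with library totals alone (-0.55, adjusted p = 0.032) and with only the 6 libraries compared (-0.48, adjusted p = 0.0492).

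MED20, the partner of MED18, did not follow it. It stood at 24.04, 24.998 and 22.8 CPM in controls, 26.3, 25.7 and 30.2 after POLR1A loss, 11.2, 13.6 and 9.701 after POLR2A loss and 19.9, 20.98 and 18.3 under actinomycin D. The POLR2A-depleted libraries lay far below the rest and the actinomycin D ones just below the controls. MED20 fell by 1.05 (SE 0.11, adjusted p = 6.6e-08) with POLR2A depleted and by 0.28 (SE 0.10, adjusted p = 0.0286) with actinomycin D, and the log2 fold change with POLR1A depleted was 0.19 (SE 0.10, adjusted p = 0.147). The actinomycin D call was lost with median-ratio size factors, without the filter and in DESeq2 (adjusted p = 0.065, 0.174 and 0.103), without actinomycin D replicate 1 or 3 (adjusted p = 0.069 and 0.14) and without control replicate 1 or 2 (adjusted p = 0.0666 and 0.112). Actinomycin D against POLR2A depletion was 0.77 (SE 0.11) for MED20 (adjusted p = 3.43e-06), with the opposite sign to MED18. MED6, the remaining head subunit, fell by 0.32 (SE 0.09, adjusted p = 0.00467) with POLR2A depleted and by 0.52 (SE 0.09, adjusted p = 4e-05) with actinomycin D, the first of which was lost with library totals alone (-0.19, adjusted p = 0.0897). Scaled to mitochondrial mRNAs, the actinomycin D values turned to 0.41 for MED6, 0.49 for MED11, 0.63 for MED20 and 0.12 for MED22, while MED17 stayed lower at -0.80 and MED8 had -0.37 (adjusted p = 0.0768).

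In the middle module MED1, the subunit that nuclear receptors bind, differed between the 2 blocks of Pol II transcription. It stood at 200.5, 215 and 220.1 CPM in controls, 245, 225 and 243 after POLR1A loss, 99.4, 95.2 and 98.8 after POLR2A loss and 209, 215 and 211 under actinomycin D. Only the POLR2A-depleted libraries were low, and the actinomycin D ones overlapped the controls. MED1 fell by 1.12 (SE 0.05, adjusted p = 1.31e-13) with POLR2A depleted and had a log2 fold change of -0.00 (SE 0.05, adjusted p = 0.992) with actinomycin D, a direct difference of 1.11 (SE 0.05) (adjusted p = 8.77e-14). It rose by 0.17 (SE 0.05, adjusted p = 0.0108) with POLR1A depleted, which was lost without POLR1A-depleted replicate 1 (adjusted p = 0.0504) and without the filter (adjusted p = 0.089). With library totals alone its actinomycin D value passed as lower (-0.12, adjusted p = 0.027). Under scaling to mitochondrial mRNAs its value with actinomycin D was 0.92.

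MED10 and MED7 belong to the core of the middle module, where MED7 forms a hinge with MED21. MED10 stood at 20.2, 21.04 and 22.1 CPM in controls, 19.1, 16.5 and 18.99 after POLR1A loss, 10.9, 9.12 and 10.5 after POLR2A loss and 12.9, 12.6 and 11.98 under actinomycin D. Its treated groups all lay below the controls, POLR2A-depleted lowest. MED10 fell by 1.06 (SE 0.11, adjusted p = 2.26e-08) with POLR2A depleted and by 0.76 (SE 0.10, adjusted p = 1.19e-06) with actinomycin D. MED7 stood at 5.85, 7.67 and 8.002 CPM in controls, 5.81, 7.37 and 8.66 after POLR1A loss, 5.16, 4.798 and 4.56 after POLR2A loss and 2.86, 3.78 and 3.195 under actinomycin D. Its libraries were lowest with actinomycin D and next lowest with POLR2A depleted, and the POLR1A-depleted ones overlapped the controls. MED7 fell by 1.13 (SE 0.19, adjusted p = 2.89e-05) with actinomycin D and by 0.57 (SE 0.19, adjusted p = 0.0126) with POLR2A depleted, the latter not without control replicate 3 (-0.51, adjusted p = 0.0512). MED21, its partner, fell by 0.53 (SE 0.09, adjusted p = 2.39e-05) with POLR2A depleted, rose by 0.39 (SE 0.08, adjusted p = 0.000501) with POLR1A depleted and had 0.08 (SE 0.08, adjusted p = 0.42) with actinomycin D.

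The remaining middle genes were MED4, MED19 and MED31. MED4, the partner of MED9, fell by 0.84 (SE 0.09, adjusted p = 2.81e-08) with POLR2A depleted and by 0.52 (SE 0.08, adjusted p = 1.29e-05) with actinomycin D. MED19 fell with actinomycin D by 0.48 (SE 0.13, adjusted p = 0.00261), and its log2 fold change was -0.17 (SE 0.13, adjusted p = 0.252) with POLR2A depleted. MED31, the most conserved subunit from yeast to human, fell with actinomycin D by 0.84 (SE 0.18, adjusted p = 0.000356) and had 0.25 (SE 0.17, adjusted p = 0.209) with POLR2A depleted. MED31 shares 58.4% of its exon bases with TXNDC17 on the opposite strand, which averaged 473 counts in controls, so its level is uncertain if strand was not used. Under scaling to mitochondrial mRNAs the actinomycin D values of MED4, MED10, MED19 and MED31 turned to 0.42, 0.16, 0.45 and 0.09, and MED7 had -0.19 (adjusted p = 0.543).

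MED14, the scaffold, was higher in every treated group. It stood at 75.96, 86.2 and 77.9 CPM in controls, 104, 104 and 105 after POLR1A loss, 93.6, 91.04 and 87.5 after POLR2A loss and 107, 112 and 108 under actinomycin D. Every treated library lay above every control library. MED14 rose by 0.38 (SE 0.05, adjusted p = 6.56e-06), 0.18 (SE 0.06, adjusted p = 0.00811) and 0.45 (SE 0.05, adjusted p = 3.97e-07) in this order. The POLR2A call was lost without POLR2A-depleted replicate 1 (adjusted p = 0.0584), control replicate 1 (adjusted p = 0.0777) or control replicate 3 (adjusted p = 0.0699), and without the filter (0.08, adjusted p = 0.437), and its value turned to -0.11 under scaling to mitochondrial mRNAs.

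Tail genes had log2 fold changes with POLR2A depleted from -0.17 for MED23 to 0.54 for MED29. MED29 stood at 37.3, 40.6 and 38.9 CPM in controls, 41.9, 41.2 and 40.8 after POLR1A loss, 57.6, 57.3 and 54.8 after POLR2A loss and 32.4, 33.3 and 33.2 under actinomycin D. The POLR2A-depleted libraries lay above all others and the actinomycin D ones below all others. MED29 rose by 0.54 (SE 0.06, adjusted p = 1.74e-07) with POLR2A depleted and fell by 0.24 (SE 0.06, adjusted p = 0.00232) with actinomycin D, and the direct difference was -0.78 (SE 0.06) (adjusted p = 3.61e-10). The fall was not called without the filter (-0.15, adjusted p = 0.18). Scaled to mitochondrial mRNAs the actinomycin D value turned to 0.68, and the POLR2A value was 0.25 (adjusted p = 0.168).

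MED15, which binds the sterol regulators of the SREBP family, was the one tail gene called lower with POLR2A depleted. The POLR2A value of MED23 was also -0.17, but did not pass (adjusted p = 0.0678). MED15 stood at 72.4, 75.8 and 71.4 CPM in controls, 80.7, 78.7 and 90.1 after POLR1A loss, 66.4, 64.4 and 64.3 after POLR2A loss and 62.7, 59.7 and 57.3 under actinomycin D. The 4 groups did not overlap, in the order POLR1A-depleted, control, POLR2A-depleted, actinomycin D. MED15 fell by 0.17 (SE 0.06, adjusted p = 0.0201) with POLR2A depleted and by 0.29 (SE 0.06, adjusted p = 0.00032) with actinomycin D. The POLR2A call was lost with median-ratio size factors (adjusted p = 0.111), with library totals alone (-0.05, adjusted p = 0.492) and in DESeq2 (adjusted p = 0.152). It rose by 0.18 (SE 0.06, adjusted p = 0.0177) with POLR1A depleted, a call lost with median-ratio size factors, without the filter and in DESeq2 (adjusted p = 0.0537, 0.089 and 0.0721), and without POLR1A-depleted replicate 3 (adjusted p = 0.133) or control replicate 3 (adjusted p = 0.0611).

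Among the other tail genes MED24, MED16 and MED25 rose with actinomycin D. MED24 rose by 0.84 (SE 0.06, adjusted p = 2.6e-11) with actinomycin D and by 0.22 (SE 0.06, adjusted p = 0.0017) with POLR2A depleted, and MED16, its neighbour in the tail, rose by 0.57 (SE 0.07, adjusted p = 5.17e-07) with actinomycin D. MED16 had -0.07 (SE 0.07, adjusted p = 0.516) with POLR1A depleted and 0.02 (SE 0.07, adjusted p = 0.793) with POLR2A depleted. The POLR2A call of MED24 was lost without the filter (0.12, adjusted p = 0.185). Actinomycin D against POLR2A depletion was 0.62 (SE 0.06) for MED24 (adjusted p = 2.61e-09) and 0.54 (SE 0.07) for MED16 (adjusted p = 7.64e-07). MED25, the docking site of the ETS factors ETV4 and ETV5, rose by 0.21 (SE 0.08, adjusted p = 0.0324), 0.38 (SE 0.08, adjusted p = 0.000227) and 0.47 (SE 0.08, adjusted p = 1.5e-05) after POLR1A loss, after POLR2A loss and under actinomycin D. The first of these calls was lost with median-ratio size factors, with only the 6 libraries compared and in DESeq2 (adjusted p = 0.0764, 0.0541 and 0.103), without POLR1A-depleted replicate 2 or 3 (adjusted p = 0.0675 and 0.114) and without control replicate 1 or 3 (adjusted p = 0.146 and 0.154). The second was 0.10 under scaling to mitochondrial mRNAs (adjusted p = 0.607). MED25 shares 18.7% of its exon bases with the antisense gene PTOV1-AS1.

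MED23, which ELK1 binds, stood at 33.2, 40.3 and 38.7 CPM in controls, 57.3, 52.8 and 53.5 after POLR1A loss, 34.4, 32.8 and 32.5 after POLR2A loss and 31.7, 32.05 and 27.9 under actinomycin D. It was highest with POLR1A depleted, lowest with actinomycin D, and overlapped the controls with POLR2A depleted. MED23 rose by 0.54 (SE 0.08, adjusted p = 5.51e-06) with POLR1A depleted and fell by 0.30 (SE 0.08, adjusted p = 0.00308) with actinomycin D. Its POLR2A value of -0.17 (SE 0.08, adjusted p = 0.0678) did not pass, but passed without control replicate 1 (-0.27, adjusted p = 0.006) and without the filter (adjusted p = 0.00397). MED27 rose by 0.41 (SE 0.08, adjusted p = 0.000186) with POLR1A depleted and had 0.13 (SE 0.08, adjusted p = 0.181) and -0.15 (SE 0.08, adjusted p = 0.13) in the other 2 comparisons. With library totals alone these last values passed, at 0.25 (adjusted p = 0.0206) with POLR2A depleted and -0.26 (adjusted p = 0.0146) with actinomycin D. MED30 rose by 0.72 (SE 0.20, adjusted p = 0.00599) with POLR1A depleted and by 0.82 (SE 0.20, adjusted p = 0.00145) with actinomycin D, from a control level of 3.12 to 4.02 CPM. MED28 rose by 0.22 (SE 0.06, adjusted p = 0.00217) with actinomycin D and by 0.14 (SE 0.06, adjusted p = 0.0374) with POLR2A depleted, and the latter was lost without POLR2A-depleted replicate 1 or 3 or any 1 control library (adjusted p from 0.0512 to 0.194) and without the filter (adjusted p = 0.693). The former was lost with library totals alone (0.10, adjusted p = 0.147). Of MED28's exon bases 32.0% are shared with FAM184B on the other strand, which averaged 82.9 counts with POLR2A depleted and 2.97 in controls. Scaled to mitochondrial mRNAs, the actinomycin D values of MED15, MED23 and MED27 turned to 0.62, 0.63 and 0.76, and the POLR2A values of MED24 and MED28 to -0.07 and -0.15.

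Kinase module genes differed from each other. CDK19 stood at 17.02, 15.6 and 15.01 CPM in controls, 28.6, 30.8 and 32.8 after POLR1A loss, 20.2, 20.97 and 21.1 after POLR2A loss and 35.3, 34.1 and 33.3 under actinomycin D. Every treated group lay above the controls, the actinomycin D libraries highest and the POLR2A-depleted ones lowest of the 3. CDK19 rose by 0.96 (SE 0.08, adjusted p = 3.82e-09), 0.39 (SE 0.09, adjusted p = 0.000477) and 1.11 (SE 0.08, adjusted p = 1.5e-10) after POLR1A loss, after POLR2A loss and under actinomycin D, the last the largest rise of the 33 in that comparison. Its paralogue CDK8 stood at 33.4, 32.3 and 30.1 CPM in controls, 39.4, 37.3 and 39.1 after POLR1A loss, 16.1, 20.2 and 15.8 after POLR2A loss and 28.1, 32.05 and 33.6 under actinomycin D. CDK8 libraries were high with POLR1A depleted and low with POLR2A depleted, and the actinomycin D ones overlapped the controls. CDK8 fell by 0.87 (SE 0.10, adjusted p = 9.93e-08) with POLR2A depleted and had -0.03 (SE 0.09, adjusted p = 0.841) with actinomycin D. It rose by 0.28 (SE 0.09, adjusted p = 0.016) with POLR1A depleted, which was lost without POLR1A-depleted replicate 1 (adjusted p = 0.0502) or control replicate 3 (adjusted p = 0.074). Under scaling to mitochondrial mRNAs the POLR2A value of CDK19 was 0.10 (adjusted p = 0.667) and the actinomycin D value of CDK8 was 0.88.

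CCNC, the cyclin that both kinases use, stood at 105, 112 and 109 CPM in controls, 116, 105 and 106 after POLR1A loss, 89.9, 92.2 and 88.5 after POLR2A loss and 135, 122 and 131 under actinomycin D. Its POLR2A-depleted libraries were below and its actinomycin D libraries above all controls. CCNC fell by 0.27 (SE 0.06, adjusted p = 0.000294) with POLR2A depleted, rose by 0.25 (SE 0.05, adjusted p = 0.000459) with actinomycin D and had 0.01 (SE 0.05, adjusted p = 0.959) with POLR1A depleted.

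MED13 and MED13L tie the kinase module to the core, and were the 2 members with the highest CPM in controls. MED13 stood at 369, 397 and 372 CPM in controls, 545, 523 and 515 after POLR1A loss, 185, 189.7 and 189.5 after POLR2A loss and 243, 267 and 240.2 under actinomycin D. The 4 groups did not overlap. MED13 rose by 0.48 (SE 0.05, adjusted p = 1.11e-07) with POLR1A depleted and fell by 1.01 (SE 0.05, adjusted p = 6.62e-13) with POLR2A depleted and by 0.60 (SE 0.05, adjusted p = 1.89e-09) with actinomycin D. MED13L stood at 446, 439.8 and 462 CPM in controls, 459.9, 419 and 424 after POLR1A loss, 148, 139 and 148 after POLR2A loss and 282, 311 and 274 under actinomycin D. POLR1A-depleted and control libraries overlapped, with actinomycin D lower and POLR2A-depleted lowest. MED13L fell by 1.64 (SE 0.06, adjusted p = 1.39e-15) with POLR2A depleted and by 0.64 (SE 0.06, adjusted p = 2.17e-09) with actinomycin D, a direct difference between these of 1.00 (SE 0.06) (adjusted p = 1.87e-12). With POLR1A depleted the MED13L value was -0.05 (SE 0.05, adjusted p = 0.522). Both actinomycin D values turned positive when scaled to mitochondrial mRNAs, 0.31 for MED13 and 0.27 for MED13L.

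MED12, which activates the kinase, stood at 58.5, 55.5 and 51.9 CPM in controls, 73.03, 72.98 and 73.4 after POLR1A loss, 43.2, 45.5 and 45.6 after POLR2A loss and 69.7, 73.9 and 70.4 under actinomycin D. It was above the controls after POLR1A loss and under the drug, and below them with POLR2A depleted. MED12 rose by 0.41 (SE 0.06, adjusted p = 5.64e-06) and 0.37 (SE 0.06, adjusted p = 1.09e-05) in the first 2 and fell by 0.30 (SE 0.06, adjusted p = 0.000197) in the third. MED12L stood at 13.6, 11.2 and 10.05 CPM in controls, 19.8, 17.7 and 21.9 after POLR1A loss, 10.3, 11.4 and 10.7 after POLR2A loss and 13.6, 16.7 and 13.2 under actinomycin D. Only its POLR1A-depleted libraries were clear of the controls. MED12L rose by 0.78 (SE 0.13, adjusted p = 2.7e-05) with POLR1A depleted. It also rose by 0.33 (SE 0.13, adjusted p = 0.0336) with actinomycin D, which was lost with library totals alone (0.21, adjusted p = 0.225), with only the 6 libraries compared (adjusted p = 0.0849) and without actinomycin D replicate 2 (adjusted p = 0.193), control replicate 2 (adjusted p = 0.0727) or control replicate 3 (adjusted p = 0.162). With POLR2A depleted it had -0.10 (SE 0.13, adjusted p = 0.561). Of MED12L's exon bases 28.8% are shared with IGSF10 on the other strand, which averaged 1.00 count in controls and 19.6 with POLR2A depleted.

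**Figure D3:**
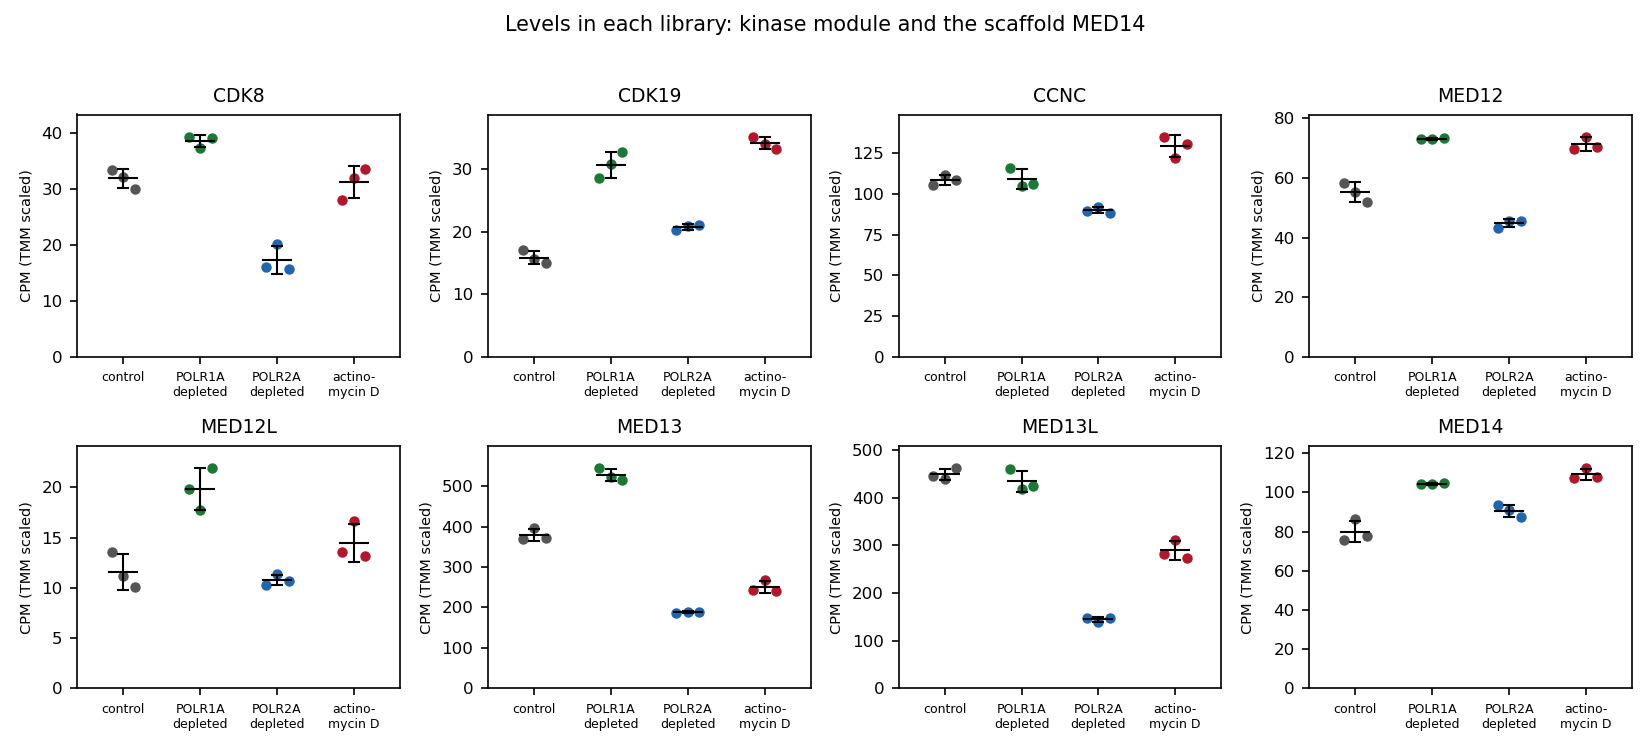
TMM-scaled CPM (y axis, starting at 0) of the 7 kinase module genes and MED14 in each library (points), with the group mean and SD (bars, n = 3). CDK19 and MED14 lie above the controls in all 3 treated groups, while CDK8, MED13 and MED13L are lowest with POLR2A depleted.

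The ratio of 2 paralogues within a library does not depend on how libraries are scaled. CDK8 had 1.96, 2.07 and 2.002 counts per CDK19 count in the controls, 1.38, 1.21 and 1.19 after POLR1A loss, 0.795, 0.963 and 0.746 after POLR2A loss, and 0.798, 0.939 and 1.01 with actinomycin D. All treated libraries had lower ratios than all controls. The log2 ratio was lower than in the controls by 0.68, 1.28 and 1.14 in this order, where the controls had 1.01 ± 0.04 (SD, n = 3). An exact two-sided permutation test gave p = 0.1 for each, the smallest that 3 against 3 allows (adjusted p = 0.129 over 9 tests). The MED13 to MED13L ratio was 0.828, 0.902 and 0.804 in controls, 1.18, 1.25 and 1.22 after POLR1A loss, 1.26, 1.37 and 1.28 after POLR2A loss, and 0.863, 0.859 and 0.876 with actinomycin D. MED13L was thus the more counted of the pair in controls and with actinomycin D, and MED13 in both depleted groups. The log2 differences were 0.53 and 0.63 for the depletions (exact p = 0.1 each, adjusted p = 0.129) and 0.04 for actinomycin D (exact p = 0.5, adjusted p = 0.563). For MED12 to MED12L they were -0.37 and -0.21 (exact p = 0.1 each, adjusted p = 0.129) and 0.05 (exact p = 0.6), from a control log2 ratio of 2.26 ± 0.14 (SD, n = 3).

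**Figure D4:**
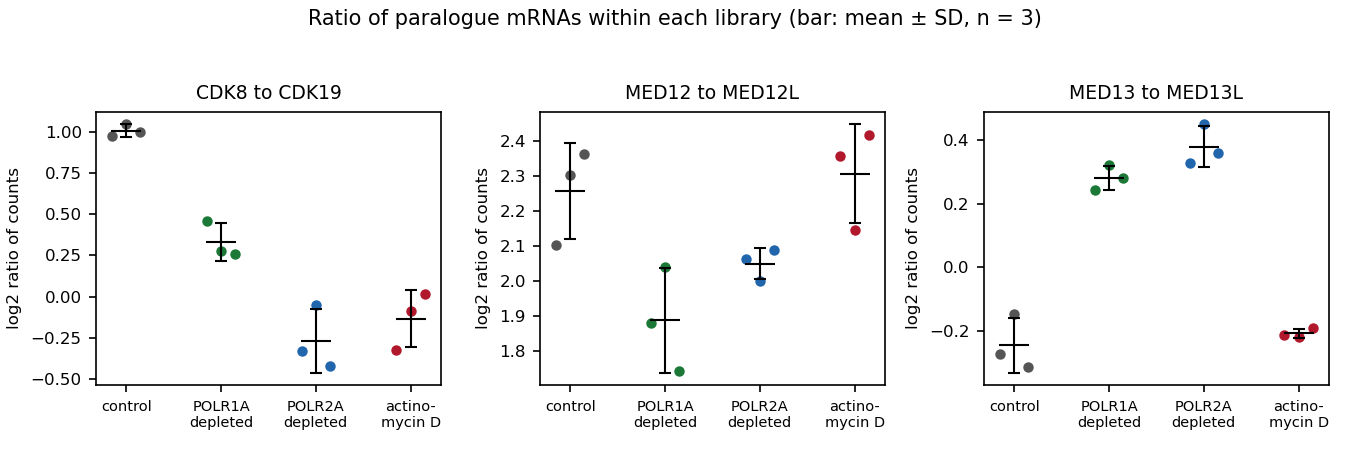
Log2 ratio of the counts of CDK8 to CDK19, MED12 to MED12L and MED13 to MED13L (y axis) in each of the 12 libraries (points) with the group mean and SD (bars, n = 3). The CDK8 to CDK19 ratio falls from about 1.01 in controls to below 0 in the means of the POLR2A-depleted and actinomycin D groups, and the MED13 to MED13L ratio is above 0 in both depleted groups only.

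The 2 blocks of Pol II transcription were compared directly. Actinomycin D against POLR2A depletion gave 18 members higher and 9 lower, where 31.1% of all genes were higher and 39.8% lower. The members' median was 0.30, against -0.18 for all genes and 0.27 for genes within the members' range of average log2 CPM. Within that range 52.4% of genes were higher and 26.7% lower. All 7 kinase module genes were higher with actinomycin D, from 0.41 (SE 0.05) for MED13 to 1.00 (SE 0.06) for MED13L. Middle genes went both ways, with 4 higher, led by MED1, and 5 lower, led by MED26. In the head MED8, MED11 and MED20 were higher and MED17 and MED18 lower. With library totals alone the higher calls of MED8 (0.19, adjusted p = 0.163), MED11 (0.50, adjusted p = 0.0532), MED12L (0.19, adjusted p = 0.25), MED4, MED10, MED14 and MED30 were lost, and MED17 turned to 0.46 under scaling to mitochondrial mRNAs. Scaling moved this count most: with library totals alone 11 members were higher, where 22% of all genes were higher and 46.4% lower. Scaled to mitochondrial mRNAs 29 members were higher and 2 lower, MED26 and MED18, where 54.7% of all genes were higher and 18.4% lower. Drug and degron also differ in cell line and in time, so these cannot be told apart from the mode of the block.

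**Figure D5:**
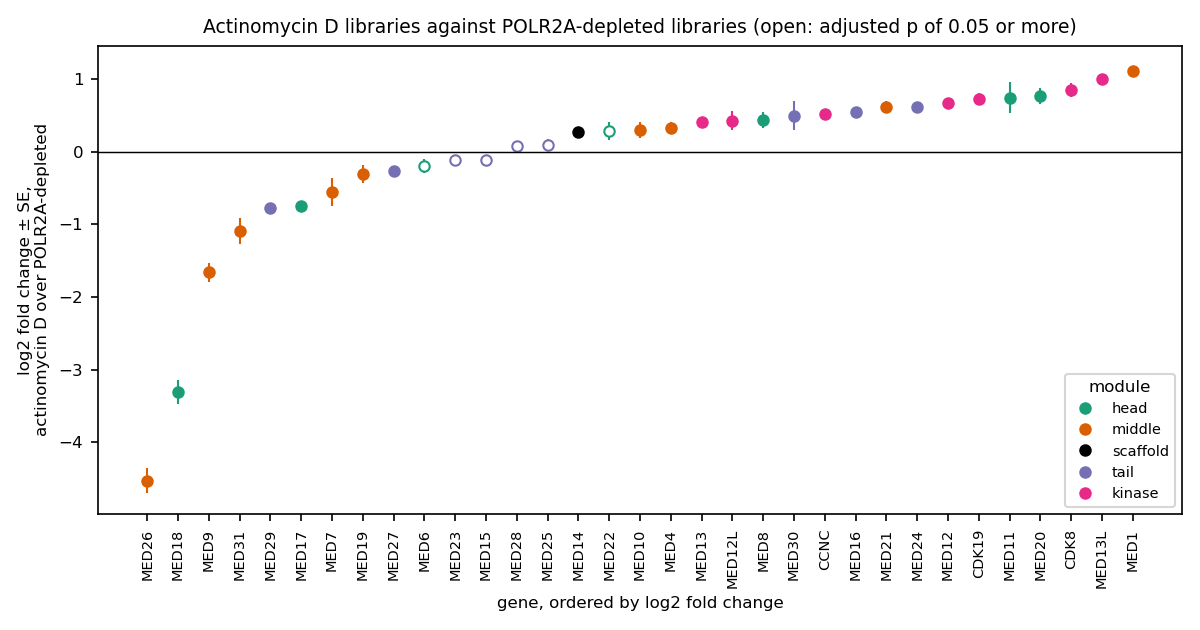
Log2 fold change with its SE of actinomycin D over POLR2A-depleted libraries (y axis) for the 33 members in rising order (x axis), coloured by module, open where the adjusted p was 0.05 or more. MED26 and MED18 stand apart at -4.53 and -3.31, all 7 kinase module genes lie above 0, and MED1 is highest at 1.11. Under scaling to mitochondrial mRNAs all values shift up, and 9 members change sign.

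Between the 2 degron lines, POLR2A against POLR1A depletion gave 4 members higher and 23 lower, where 33.2% of all genes were higher and 29.1% lower (median -0.57 for the members). Within the members' range of average log2 CPM 23.0% of genes were higher and 49.2% lower. The median was 0.08 over all genes and -0.22 within that range. All 7 kinase module genes were lower, from -0.27 (SE 0.06) for CCNC to -1.59 (SE 0.06) for MED13L, as were 6 of 7 head genes. MED26, MED24, MED28 and MED29 were the 4 higher ones, and MED26 had 1.29 (SE 0.13) (adjusted p = 1.25e-07). The count of higher members was 2 without POLR1A-depleted replicate 2, POLR1A-depleted replicate 3 or POLR2A-depleted replicate 3. Actinomycin D against POLR1A depletion gave 5 members higher and 23 lower (median -0.47), where 24.4% of all genes were higher and 31.8% lower, and 36.8% and 39.1% of genes within the members' range. The median in this comparison was -0.115 over all genes and -0.015 within that range. There all 9 middle genes were lower, while MED16, MED24, MED25, MED28 and CCNC were higher. The members' median turned to 0.09 under scaling to mitochondrial mRNAs, with 10 members higher and 7 lower, where 39.2% of all genes were higher and 14.8% lower.

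Proteins that work with Mediator are encoded by genes whose counts are read here against the shares over all genes tested, which were 20.6% higher and 18.6% lower with POLR1A depleted, 33.2% and 28.2% with POLR2A depleted, and 24.9% and 28.5% with actinomycin D. Within the Mediator genes' range of average log2 CPM the shares were 32.6% and 28.2%, 24.3% and 46.7%, and 40.1% and 35.3%. Scaled to mitochondrial mRNAs the shares over all genes were 30.5% and 5.35%, 21.4% and 34.0%, and 50.4% and 8.74%. Of 12 Pol II subunit genes 3 rose and 4 fell with POLR1A depleted, 5 rose and 1 fell with POLR2A depleted, and 10 rose and 0 fell with actinomycin D. Scaled to mitochondrial mRNAs these counts were 5 and 0, 1 and 4, and 12 and 0. POLR2A, the largest subunit, stood at 468, 561 and 514 CPM in controls, 908, 909.7 and 945 after POLR1A loss, 1094, 1073 and 1110.4 after POLR2A loss and 576, 620.2 and 558 under actinomycin D. Both depleted groups lay above the controls. Its mRNA rose by 0.84 (SE 0.06, adjusted p = 1.85e-10) with POLR1A depleted and by 1.09 (SE 0.06, adjusted p = 1.46e-12) with POLR2A depleted, and the degron acts on the protein, so this does not check the depletion. With actinomycin D POLR2L, POLR2J and POLR2E rose by 0.82 (SE 0.14), 0.80 (SE 0.10) and 0.76 (SE 0.06) under TMM. They also rose under the other scalings, by differing amounts. Of 18 general transcription factor genes 4 rose and 5 fell, 2 rose and 11 fell, and 6 rose and 7 fell, in the same order of comparisons, and scaled to mitochondrial mRNAs 8 and 0, 0 and 13, and 13 and 2. GTF2E1, a subunit of TFIIE, fell in all 3, by 0.61 (SE 0.10), 1.22 (SE 0.11) and 1.32 (SE 0.10), and TBP, the TATA-binding protein, fell by 1.45 (SE 0.11, adjusted p = 1.65e-10) with actinomycin D. CDK7, the kinase of TFIIH, fell by 0.78 (SE 0.09) with POLR2A depleted and by 1.05 (SE 0.08) with actinomycin D. Under mitochondrial scaling the POLR1A value of GTF2E1 was -0.26 (adjusted p = 0.238) and the actinomycin D value of CDK7 was -0.14 (adjusted p = 0.485).

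Of 17 genes for coactivators and loaders that act with Mediator 13 rose and 0 fell with POLR1A depleted (20.6% and 18.6% of all genes), 3 rose and 10 fell with POLR2A depleted (33.2% and 28.2%, and 46.7% fell within the Mediator genes' range of average log2 CPM), and 1 rose and 13 fell with actinomycin D (24.9% and 28.5%, and 35.3% fell within that range). Scaled to mitochondrial mRNAs these counts were 16 and 0, 0 and 13, and 9 and 4. The shares over all genes were then 30.5% and 5.35%, 21.4% and 34.0%, and 50.4% and 8.74%. ELL, an elongation factor of the kind that MED26 recruits, stood at 25.1, 24.9 and 25.2 CPM in controls, 42.4, 43.2 and 45.3 after POLR1A loss, 40.1, 41.1 and 37.6 after POLR2A loss and 4.91, 6.89 and 5.78 under actinomycin D. Its libraries were above the controls in both depleted groups and far below them with actinomycin D, whereas MED26 was below the controls with POLR1A depleted. ELL rose by 0.80 (SE 0.08, adjusted p = 7.95e-08) with POLR1A depleted and by 0.66 (SE 0.09, adjusted p = 9.25e-07) with POLR2A depleted, and fell by 2.08 (SE 0.10, adjusted p = 1.25e-13) with actinomycin D. The second of these was 0.37 under mitochondrial scaling (adjusted p = 0.054). AFF4, the scaffold of the super elongation complex, rose by 0.95 (SE 0.06, adjusted p = 1.06e-11) with POLR1A depleted. The cohesin loaders MAU2 and NIPBL fell by 1.19 (SE 0.11) and 1.09 (SE 0.07) with POLR2A depleted. FBXW7, the ubiquitin ligase subunit that targets MED13, fell by 1.74 (SE 0.07, adjusted p = 1.09e-14) with actinomycin D.

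Of 16 genes for activators that bind a Mediator subunit 8 rose and 4 fell with POLR1A depleted (20.6% and 18.6% of all genes), 3 rose and 12 fell with POLR2A depleted (33.2% and 28.2%, and 46.7% fell within the Mediator genes' range of average log2 CPM), and 9 rose and 6 fell with actinomycin D (24.9% and 28.5%). Scaled to mitochondrial mRNAs these counts were 10 and 0, 1 and 13, and 11 and 3, where the shares over all genes were 30.5% and 5.35%, 21.4% and 34.0%, and 50.4% and 8.74%. ETV5, which binds MED25, stood at 35.5, 44.2 and 38.1 CPM in controls, 98.8, 96.7 and 98.7 after POLR1A loss, 31.6, 31.9 and 32.5 after POLR2A loss and 101, 102 and 98.3 under actinomycin D. It rose by 1.32 (SE 0.07, adjusted p = 7.84e-13) and 1.35 (SE 0.07, adjusted p = 1.46e-13) with POLR1A depleted and with actinomycin D. CEBPB, which binds MED23, fell by 3.13 (SE 0.16, adjusted p = 2.37e-13) with actinomycin D, and RARA, a retinoid receptor of the kind that binds MED1, by 2.25 (SE 0.11, adjusted p = 6.66e-12). NR3C1, the glucocorticoid receptor, rose by 0.75 (SE 0.08) with POLR1A depleted and fell by 1.04 (SE 0.09) with POLR2A depleted. The changes named for these activators kept direction and call under mitochondrial scaling.

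The members' gene structures were set beside their responses. In GENCODE 29 the genomic span ran from 2.18 kb for MED11 to 351 kb for MED12L, and the transcript with the longest coding sequence had from 2 exons in MED7 and MED9 to 45 in MED12. Across the 33 members, which share the same libraries, the log2 number of exons had Pearson r = 0.50 with the log2 fold change with actinomycin D, against 0.26 over 14924 coding genes tested. For POLR2A depletion these were -0.04 and -0.06. With POLR1A depleted r was 0.50 for exons and 0.51 for the log10 span, against 0.03 and 0.04 over coding genes. Of the 10 members with up to 4 exons, a limit chosen after the values were seen, 8 fell and 1 rose with actinomycin D (median -0.80), and the one that rose was MED30, where 20.3% of coding genes with up to 4 exons rose and 43.9% fell. Of the 23 with more exons 10 fell and 9 rose (median -0.03), where 26.5% of coding genes with over 4 exons fell and 39.4% rose. Over coding genes the medians were -0.43 for 3083 genes with up to 4 exons and 0.14 for the rest. Scaled to mitochondrial mRNAs 3 of the 10 were higher and 3 lower (median 0.12), and MED10, MED20, MED29 and MED31 of the 8 turned positive. Under that scaling 50.4% of all genes tested were higher and 8.74% lower, and shares of coding genes by exon number were not computed. With POLR2A depleted the members' TMM medians in these bands were -0.17 and -0.27, against 0.05 and -0.07 for coding genes. The 8 members under 10 kb, the 15 from 10 to 50 kb and the 10 over 50 kb had medians of -0.77, 0.08 and -0.22 with actinomycin D and of -0.07, 0.02 and 0.39 with POLR1A depleted. Coding genes in these bands had 0.00, 0.09 and 0.07, and -0.04, 0.04 and 0.12. With POLR2A depleted the members had -0.62, -0.31 and -0.13, and coding genes 0.06, -0.004 and -0.18. MED26, the lowest of the 10 over 50 kb with actinomycin D, spans 54.2 kb and has 3 exons.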

How the data were processed

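Total RNA was sequenced after rRNA depletion (Illumina Stranded Total RNA kit, per the labels' protocols). The authors deposited 1 table of estimated counts per gene, of which 76.1% are whole numbers. The submitters' processing notes name Trim Galore 0.6.10, STAR, RSEM 1.3.3, HTSeq 2.0.2 and DESeq2 1.44.0, and the builds GRCh38 and hg38. Which annotation release was counted, and whether by strand, is not given in those sources. A stranded kit counted without strand would mix a gene with its antisense partner.

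Counts were rounded, filtered (filterByExpr), scaled by TMM and fitted over all 12 libraries with edgeR 4.0.16 in R 4.3.3, with 8 residual degrees of freedom and Benjamini-Hochberg adjustment over 23593 genes in each of 6 comparisons. The fit was tested on simulated data in which few genes changed, as many up as down. That does not check the scaling where many genes change. Paralogue ratios added 0.5 to each count. Alternatives were median-ratio size factors, library totals, scaling to 13 mitochondrial mRNAs, no filter, only the libraries compared, a replicate block, DESeq2 1.42.0 and leaving out each library. Replicate libraries differed by more than sampling noise, and none were identical.

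Members and lists were chosen with earlier results of these data known. Any member could be named. Values in every library are given for those past the threshold with a log2 change of 1 or more, for the kinase module and MED14, and for each module's extremes with POLR2A depleted, with up to 3 genes of each partner list and comparison. MED15 was added outside these rules. Gene positions and lengths are from GENCODE 29 (GRCh38), matched for all 33 members. A protein comparison of the paralogues was not made.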

Additional observations from a re-analysis of the deposited data

How the results depend on the processing

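Depth and 3 dishes a group limit the small changes, and the calls against control that an alternative ended are given beside each gene. Most of all, the direction of a change is relative to the scaling. The mitochondrial mRNAs may themselves have changed with a treatment, which was not tested, so values scaled to them are not true directions per cell. Scaling to mitochondrial mRNAs gave 20 members higher and 0 lower with POLR1A depleted (median 0.52) and 1 higher with POLR2A depleted (median -0.56). With actinomycin D it gave 21 higher and 4 lower (median 0.63). Against POLR1A depletion it gave 1 higher with POLR2A depleted (median -1.20) and 10 higher and 7 lower with actinomycin D (median 0.091), and between actinomycin D and POLR2A depletion 29 higher and 2 lower (median 1.51). In this order 16.7% of all genes were higher and 48% lower, 39.2% and 14.8%, and 54.7% and 18.4% under this scaling. The actinomycin D values that changed sign under it were MED6 0.41, MED20 0.63, MED22 0.12, MED1 0.92, MED4 0.42, MED10 0.16, MED19 0.45, MED31 0.088, MED15 0.62, MED23 0.63, MED27 0.76, MED29 0.68, MED13 0.31, MED13L 0.27 and CDK8 0.88, beside the uncalled MED11. Among the genes called in the other comparisons with control, MED9 turned to 0.031 with POLR1A depleted, and MED14 to -0.11, MED24 to -0.072 and MED28 to -0.15 with POLR2A depleted, beside 10 and 3 uncalled members. Between actinomycin D and POLR2A depletion they were MED6 0.99, MED17 0.46, MED7 0.65, MED19 0.89, MED31 0.12, MED15 1.09, MED23 1.08, MED27 0.94 and MED29 0.43.

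With library totals alone 1 member was lower with POLR1A depleted, and the medians were -0.15 with POLR2A depleted and -0.41 with actinomycin D. Against POLR1A depletion they were -0.49 (POLR2A) and -0.63 (actinomycin D, 2 higher), and between actinomycin D and POLR2A depletion 0.06 with 11 higher and MED28 at -0.16. Of all genes 19% were higher for actinomycin D against POLR1A depletion and 22% against POLR2A depletion. Without the filter on low counts the medians were -0.37 with POLR2A depleted (4 higher), -0.20 with actinomycin D, -0.66 for POLR2A against POLR1A depletion (2 higher), -0.37 for actinomycin D against POLR1A depletion and 0.49 for actinomycin D against POLR2A depletion. Of all genes 19.5% were then higher with POLR2A depleted and 20.7% for POLR2A against POLR1A depletion. Median-ratio size factors and DESeq2 each gave medians of -0.22 with POLR2A depleted, -0.49 for POLR2A against POLR1A depletion and -0.41 for actinomycin D against POLR1A depletion, and DESeq2 called 1 member lower with POLR1A depleted. Fitting only the 6 libraries compared moved the last of these medians to -0.42. Among all calls, the share of higher genes with library totals alone was 33.9% for actinomycin D against POLR1A depletion (43.4% under TMM) and 32.2% against POLR2A depletion (43.9%), and with mitochondrial scaling 25.7% for POLR2A against POLR1A depletion (53.3%). Actinomycin D against POLR1A and against POLR2A depletion had 72.6% and 74.9% of calls higher under mitochondrial scaling.

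Counting MED27 to MED30 with the head moved the head medians to -0.32 with POLR2A depleted, -0.44 with actinomycin D, -0.40 for POLR2A against POLR1A depletion, -0.47 for actinomycin D against POLR1A depletion and 0.080 for actinomycin D against POLR2A depletion, and the tail medians to 0.024, 0.47 and, for actinomycin D against POLR1A depletion, 0.26. Leaving out 1 library at a time gave 0 to 2 members lower and a median of 0.09 to 0.19 with POLR1A depleted, a median of -0.31 to -0.24 with POLR2A depleted, 2 to 4 members higher and a median of -0.64 to -0.47 for POLR2A against POLR1A depletion, and medians of -0.50 to -0.39 and 0.30 to 0.37 for actinomycin D against POLR1A and POLR2A depletion. The MED12 to MED12L difference with actinomycin D ran from -0.027 to 0.13. Same-numbered libraries had deviations correlated by -0.09 to 0.06. These values show no strong signal shared by number, but do not tell whether such dishes were handled together. A replicate block left 1 member lower with POLR1A depleted, with MED9 no longer called, gave 19 higher for actinomycin D against POLR2A depletion, and left the counts of the other comparisons with control as they were.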
